A study of Mus musculus with 6 samples.

Results

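The genes described here encode the clathrin coat, its adaptors and the proteins that bend, cut, uncoat and tether endocytic membranes. Of 44 genes named for this machinery, 42 were represented among the 18193 genes on the arrays by a probe set annotated with 1 gene symbol, and Picalm and Appl2 were not analysed here. Each gene was represented by its probe set with the highest mean log2 signal over all 6 arrays. Of the 42, 41 were bright enough to be tested, and Amph, which encodes the membrane-bending protein amphiphysin, was too dim. The samples were proximal tubules dissected from the kidneys of mice with a knockout of Clcn5 and of wild type mice, with 3 Affymetrix arrays for each genotype and pooled RNA on each array. The labels describe pools of 3 to 4 mice, whereas the records stored with the arrays describe pools of 7 mice, each named a biological replicate, so that p-values measure the spread between RNA pools. The knockout allele and the strain, age and sex of the mice are not given in the sources used here, and no treatment is named for either group.

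Clathrin-mediated endocytosis begins when adaptor proteins gather cargo receptors at the plasma membrane and recruit clathrin, which assembles into a cage around the budding pit. Dynamin and BAR-domain proteins cut the pit from the membrane, and auxilin-type cochaperones with Hsc70 strip the coat so that the vesicle can fuse with early endosomes. In proximal tubule cells this route carries megalin and cubilin with the small proteins filtered at the glomerulus. ClC-5, the product of Clcn5, is a chloride/proton exchanger of the endosomes on this route, and its loss is known for impaired uptake of filtered protein.

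The signals were scaled to a common trimmed mean on each array, and the array medians lay between 40.9 and 48.8. Station 1, the fluidics unit that washed and stained them, held 2 arrays of each genotype, and station 2 held 1 of each. The station 2 arrays, knockout array 3 and wild type array 2, had the highest medians, 48.8 and 45.3. Clcn5 itself was lower on every knockout array. By its representing probe set, its signals were 352, 322 and 269 in knockout and 1013, 709 and 1029 in wild type (log2 change −1.53, SE 0.14). The other kept probe sets of Clcn5 were also lower, at −2.87, −2.10 and −1.50. Markers of the S1 and S2 segments were all bright enough to test, and their summed signals lay between 38588 and 40514 in knockout and between 38170 and 42670 in wild type. By limma none of these 12 rose and 2 fell, Slc6a19 and Slc7a7. Of 8 markers of the S3 segment 1 rose, and their summed signals lay between 10290 and 10906 in knockout and between 9353 and 9846 in wild type. Markers of other nephron segments were also bright. In wild type their summed signals were 11918 to 12463 for the thick ascending limb and 14198 to 16537 for the distal convoluted and connecting tubule. They were 2873 to 3215 for principal cells and 2372 to 2461 for intercalated cells. The member signals therefore cannot be credited to proximal tubule cells alone. In knockout, 2 of 7 tested thick ascending limb markers, 3 of 6 of the distal convoluted and connecting tubule and 3 of 7 of intercalated cells were higher. Of the principal cell markers 2 of 6 were lower. Of 6 podocyte markers 2 were higher, and of 11 leukocyte markers 3 were higher, with summed leukocyte signals of 3098 to 3197 in knockout and 2151 to 2211 in wild type. None of 10 endothelial, 7 fibroblast and smooth muscle or 4 sex-linked markers passed by limma, 2 of them, both of fibroblasts and smooth muscle, with an unadjusted p under 0.05, and both red blood cell markers on the array were too dim to test. The part of these marker differences in the values given here was not tested. In such bulk RNA, fewer cells of a type and less RNA per cell cannot be told apart.

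Measured differences in the clathrin machinery between knockout and wild type tubules were mostly small. By the representing probe set 26 of the 41 tested members, or 63.4%, had a log2 change under 0.1 in size, against 41.5% of all tested genes. Of the 41 tested members, none was higher and 1, Ehd1, was lower in knockout by limma at an adjusted p under 0.05, which is 2.44% of the members. Among all 11620 tested genes 6.48% passed in either direction, and 3.24% passed as lower. Members with an unadjusted p under 0.05 numbered 5, or 12.2%, of which 4 were lower and 1 higher in knockout, against 19.4% of all tested genes. The knockout signals did not overlap the wild type signals in 3 members, all lower in knockout, where 25.2% of all tested genes were so separated, 13.6% as higher and 11.6% as lower. The median log2 change of the members was −0.01, and that of all tested genes was 0.01. The median size of the change, regardless of direction, was 0.08 for the members and 0.13 for all tested genes. By its representing probe set no member changed by more than 0.5 on the log2 scale in either direction, as 6.67% of all tested genes did. The members were brighter than most genes, with a median signal of 466 against 199, and had a smaller median standard error, 0.085 against 0.115; the part of signal level in the smaller changes was not tested. Since the genes were chosen with earlier results of these arrays known, these counts describe the set and do not test it.

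**Figure D1:**
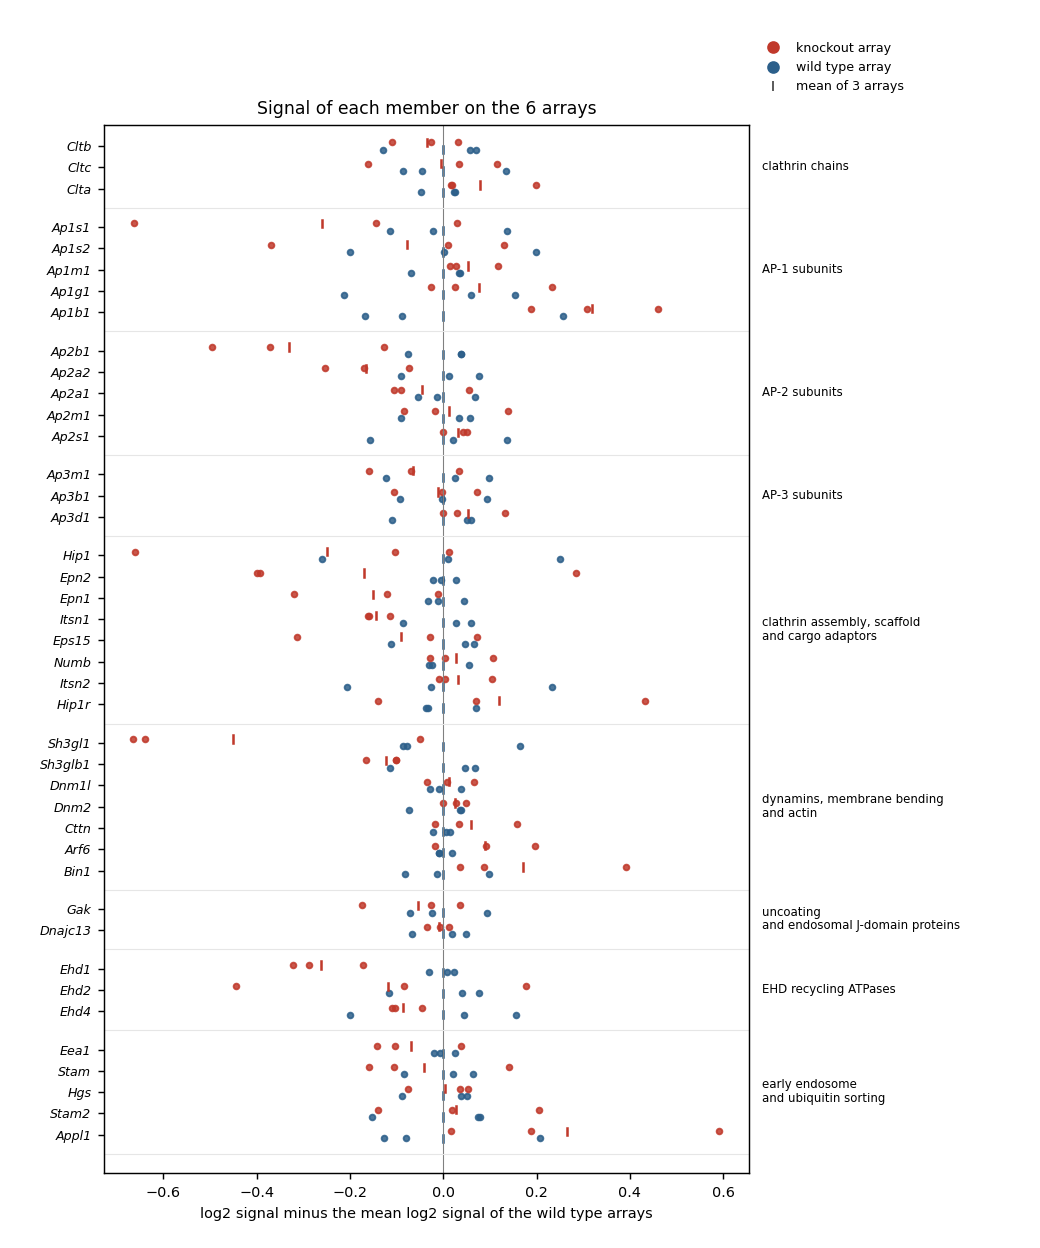
Log2 signal of each of the 41 tested members on every array, expressed relative to the mean of the wild type arrays of that gene, with knockout arrays in red, wild type arrays in blue and short bars at the means of 3 arrays; genes are grouped by role. In all genes except Ehd1, Ap2b1 and Itsn1 the red and blue points overlap.

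The precision of the arrays bounds how far the signals of the representing probe sets can have differed. For 33 of the 41 members the 95% interval of the log2 change lay within 0.5 of 0 on both sides, a band of 1.41-fold in either direction, and this held for 62.5% of all tested genes. All 41 intervals lay within 1 of 0, or 2-fold. The 8 members whose interval reached beyond 0.5 were Ap1b1, Ap1s1, Ap1s2, Ap2b1, Hip1, Epn2, Sh3gl1 and Appl1. These intervals are for each gene alone and are not adjusted for the number of genes. Over all 99 kept probe sets of the members, 69 had an interval within 0.5 of 0 and 95 within 1, and the other 4 belonged to Bin1, Clta, Hip1 and Hip1r. With the standard errors of these arrays, a member at the median needed a measured log2 change of 0.32 in size to pass the adjusted threshold, and 34 of the 41 needed more than the 0.26 seen in Ehd1.

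**Figure D2:**
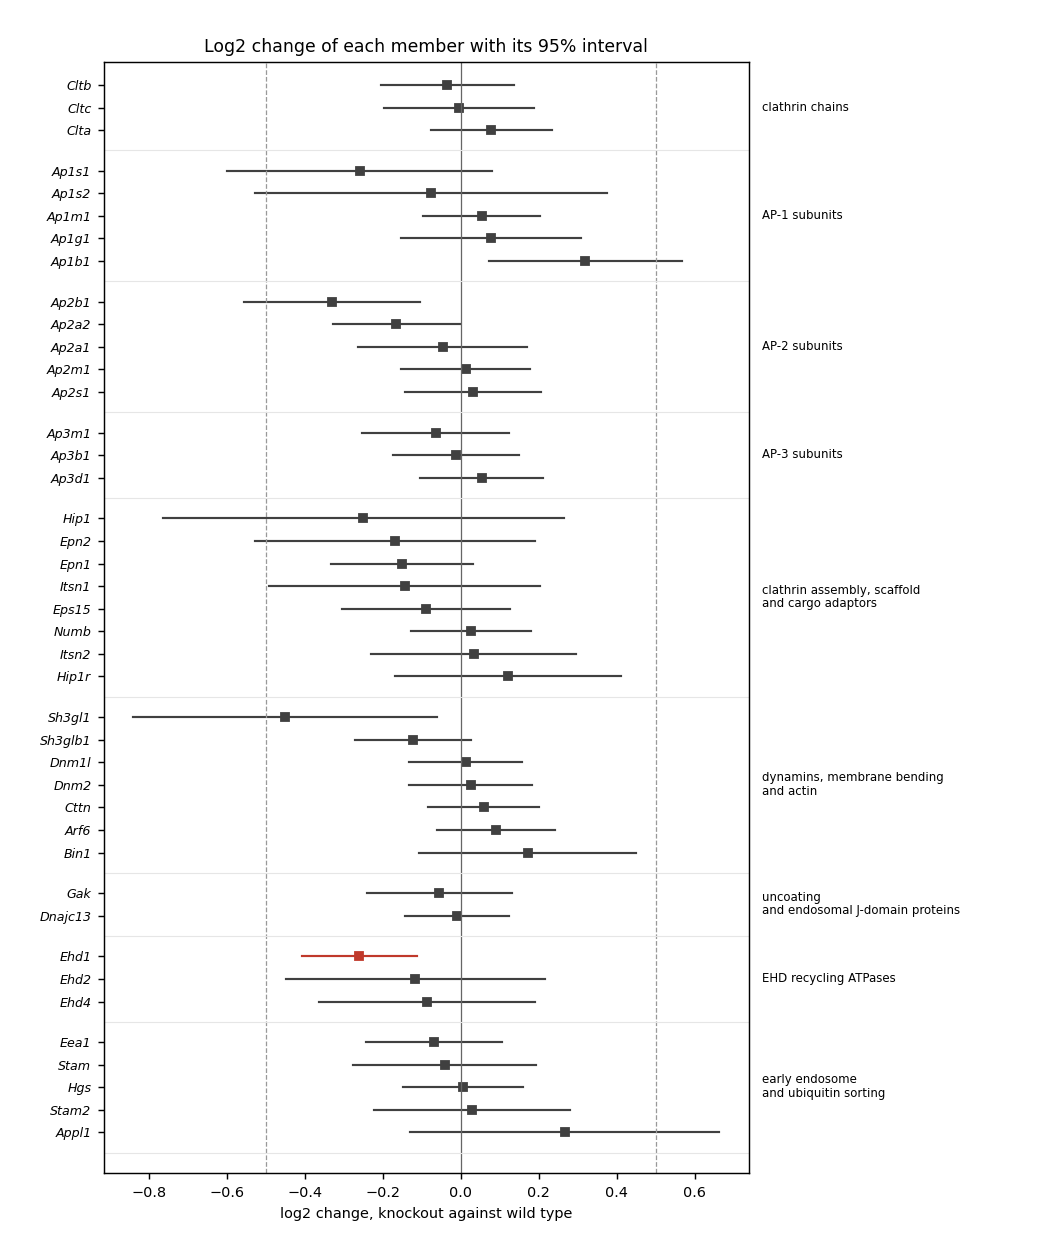
Log2 change of each tested member, knockout against wild type, with its 95% interval from limma; the dashed lines mark 0.5 in either direction, and the gene past the adjusted threshold is red. The changes run from −0.45 for Sh3gl1 to 0.32 for Ap1b1, and 33 of 41 intervals stay between the dashed lines.

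The clathrin chains had standard errors of 0.07 to 0.09 and showed no change that passed the test. Cltc, the heavy chain that forms the legs of the clathrin triskelion, had signals of 2523, 2668 and 2203 on the knockout arrays and 2704, 2320.3 and 2387 on the wild type arrays. Its log2 change was 0.00, with a 95% interval from −0.20 to 0.19. Clta, the light chain A gene, read 3048, 2689 and 2686 in knockout and 2698, 2569 and 2701 in wild type. The knockout and wild type values of Clta overlapped, and the log2 change of 0.08 (SE 0.07, limma adjusted p = 0.618) did not pass the test. Cltb, the light chain B gene, was at −0.04, with an interval from −0.20 to 0.13. Cltb read 557, 505 and 535 in knockout and 567, 498 and 572 in wild type, and these values overlapped. A difference of 0.5 or more lay outside the interval of the representing probe set of each of the 3 chain genes. With each kept probe set fitted, it lay inside the interval of 2 dim ones, Clta 1444328_at (0.65, −0.15 to 1.44) and Cltb 1456797_at (0.31, −0.23 to 0.85).

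AP-2 is the adaptor complex of the plasma membrane, in which the alpha and beta2 subunits bind membrane and clathrin and the mu2 subunit reads sorting signals of cargo. Of its 5 tested genes none passed by limma, 2 had an unadjusted p under 0.05, 3 lay below 0, and the lowest was Ap2b1, the beta2 subunit. Its probe set 1452292_at read 297, 251 and 230.3 on the knockout arrays and 334, 308 and 333 on the wild type arrays. All 3 knockout values were below all wild type values, with means of 260 ± 34.3 and 325 ± 14.7 (SD, n = 3), a ratio of 1.26-fold, and the log2 change of −0.33 (SE 0.10) had a limma adjusted p of 0.0919. The dimmer Ap2b1 probe set 1427077_a_at also had separate groups, with 186, 185 and 160 in knockout and 204, 195 and 226 in wild type, a log2 change of −0.24. Knockout array 1 was the highest of the 3 for Ap2b1, and without it the log2 change was −0.43 and passed (adjusted p = 0.0208, range over all alternatives 0.0208 to 0.254). Ap2a2, one of the alternative alpha subunits, was at −0.17 (adjusted p = 0.25), with signals of 604, 565 and 533 in knockout and 597, 641 and 671 in wild type that overlapped through knockout array 1 and wild type array 1. Its 3 other kept probe sets were between −0.06 and 0.09. Ap2m1, the mu2 subunit, had a log2 change of 0.01, Ap2s1, the small sigma subunit, 0.03, and Ap2a1, the other alpha subunit, −0.05, and the intervals of these 3 genes did not reach 0.3 in either direction. Ap2s1, the highest of the complex, read 717, 691 and 712 in knockout and 701, 621 and 760.0 in wild type, and the wild type arrays enclosed the knockout ones.

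AP-1 works with clathrin at the trans-Golgi network and endosomes, and AP-3 sorts proteins from endosomes to lysosomes. Ap1b1, the beta1 subunit and a close relative of Ap2b1, had the highest log2 change of all members, 0.32 (SE 0.11), which did not pass the test (limma adjusted p = 0.140). The signals of its probe set 1416279_at were 627, 681 and 757 in knockout and 517, 490 and 658 in wild type, and the groups overlapped through wild type array 3. Without that array the log2 change was 0.45 and passed (adjusted p = 0.0274, range over all alternatives 0.0274 to 0.565). Within station 1 the log2 change of Ap1b1 was 0.16, and on station 2 it was 0.63. Ap1s1, a sigma1 subunit, was at −0.26 (adjusted p = 0.405), the lowest of the group, with signals of 318, 222 and 358 in knockout and 345, 386 and 324 in wild type. Knockout array 2 was the lowest of the 6 for Ap1s1, and the other knockout values lay among or below the wild type ones. Ap1g1 (gamma1), Ap1m1 (mu1A) and Ap1s2 (sigma1B) had log2 changes of 0.08, 0.05 and −0.08. The 3 tested AP-3 genes, Ap3m1 (mu), Ap3b1 (beta) and Ap3d1 (delta), were at −0.06, −0.01 and 0.05, with all intervals within 0.5. Ap3m1 read 354, 379.5 and 332 in knockout and 397, 377 and 341 in wild type. Ap3d1 read 812, 740.4 and 756 in knockout and 772, 686 and 768 in wild type. In both genes the groups overlapped.

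Of the scaffolds and cargo adaptors none of 8 tested genes passed by limma or had an unadjusted p under 0.05, and the median log2 change was −0.12. Hip1, which links clathrin to actin, was lowest at −0.25 with a wide interval from −0.76 to 0.26, and its relative Hip1r was highest at 0.12. Hip1 read 62.7, 42.6 and 68.0 in knockout and 67.8, 80.2 and 56.2 in wild type. Its other kept probe sets lay between −0.05 and 0.58, so that the direction of Hip1 depended on the probe set. The highest of them, 1432017_at, did not pass when each kept probe set was fitted (limma adjusted p = 0.237). Hip1r read 331, 258 and 223 in knockout and 239, 239.7 and 257 in wild type, so that the knockout values lay on both sides of the wild type ones. Itsn1, an intersectin that gathers endocytic proteins at the pit, was dim, with signals of 67.1, 69.2 and 67.0 in knockout and 70.5, 78.0 and 76.3 in wild type. These values did not overlap, and the log2 change was −0.14 (SE 0.16, limma adjusted p = 0.694), and the other kept probe set of Itsn1 was at 0.02. The epsin genes Epn1 and Epn2, whose products bend membrane and bind ubiquitinated cargo, were at −0.15 and −0.17. In Epn2 the spread came from knockout array 1, which read 298 against 186 and 185 on the other knockout arrays and 241 to 249 in wild type. Without that array Epn2 was at −0.40 (adjusted p = 0.0362, range over all alternatives 0.0362 to 0.949), whereas the mean of its kept probe sets gave 0.02. Eps15, a scaffold of the pit rim, was at −0.09, Itsn2 at 0.03, and Numb, an adaptor for Notch and other receptors, at 0.03.

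Among genes of membrane bending, fission and actin, Sh3gl1 had the lowest log2 change of all members, −0.45 (SE 0.18), which did not pass the test (limma adjusted p = 0.183). Sh3gl1 encodes endophilin A2, a BAR-domain protein that recruits dynamin. The signals of its probe set 1416338_at were 88.1, 135 and 89.6 in knockout and 132, 132 and 156 in wild type, so that knockout array 2 lay within the wild type range. Without knockout array 2 the log2 change was −0.65 and passed (adjusted p = 0.0336, range over all alternatives 0.0336 to 0.440). Dnm2, the dynamin of most tissues, was almost even across the arrays, with 370.2, 363 and 375 in knockout and 345, 372 and 373 in wild type (log2 change 0.03, interval −0.13 to 0.18). Dnm1l, the dynamin-related protein of mitochondrial and peroxisomal fission, was at 0.01, and its highest signal was 1.07 times its lowest over the 6 arrays. Bin1, an amphiphysin relative, was highest at 0.17, with 0.02 on station 1 and 0.47 on station 2. Its signals were 148, 143 and 183 in knockout and 138, 132 and 149 in wild type, and knockout array 3 stood above the other arrays. Arf6, a GTPase of the plasma membrane and recycling, Cttn (cortactin, which stabilises branched actin) and Sh3glb1 (endophilin B1) were at 0.09, 0.06 and −0.12. The too dim Amph had signals of 5.20, 3.88 and 9.72 in knockout and 1.41, 1.30 and 5.06 in wild type, so it was compared only in the alternative without a filter on dim probe sets, where its log2 change was 1.47 with an interval from −0.12 to 3.06 and did not pass (limma adjusted p = 0.388).

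The uncoating gene Gak, a kinase with an auxilin-like J domain, was at −0.06, with overlapping signals of 338, 306 and 353 in knockout and 368, 339 and 328 in wild type. Dnajc13, an endosomal J-domain protein, was at −0.01, with signals of 1011, 1030 and 1044 in knockout and 1049, 989 and 1070.2 in wild type. Its interval from −0.14 to 0.12 was the narrowest of all members.

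Ehd1 was the 1 member past the threshold. It encodes an ATPase that drives the exit of receptors from the recycling endosome. The signals of probe set 1416011_x_at were 550.2, 496 and 508 on the knockout arrays and 624, 608 and 630 on the wild type arrays, and the highest knockout value lay below the lowest wild type value. The means were 518 ± 28.4 and 620 ± 11.6 (SD, n = 3), a 1.2-fold lower level in knockout, with a log2 change of −0.26 (SE 0.07, 95% interval −0.41 to −0.11, limma adjusted p = 0.0435). The 3 other kept probe sets of Ehd1 were also below 0, at −0.13, −0.23 and −0.06, but in each of them the groups overlapped. The call stood under 5 of 16 alternatives, whose adjusted p ranged from 0.0289 to 0.220. It ended with the station as a block (−0.26, adjusted p = 0.0568), when the kept probe sets were averaged (−0.17, adjusted p = 0.220), and without any single array except knockout array 1 (adjusted p 0.0909 to 0.152). The direction and size were alike on station 1 (−0.26, adjusted p = 0.162) and station 2 (−0.26). The related genes Ehd2, of caveolae, and Ehd4, of early endosomes, were at −0.12 and −0.09 and did not pass. Ehd4 read 128, 129 and 134 in knockout, between the 120.4 and 154 of the wild type arrays.

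None of 5 tested genes of early endosomes and ubiquitin sorting passed by limma or had an unadjusted p under 0.05. Eea1, the tether that docks endocytic vesicles, was lowest at −0.07, with an interval from −0.24 to 0.10. It read 328, 298 and 290.1 in knockout and 326, 316 and 319 in wild type, and knockout array 1 was the highest of the 6. Appl1, an adaptor of early signalling endosomes, was highest at 0.27, but its groups overlapped and its interval ran from −0.13 to 0.66. Appl1 read 87.4, 130.1 and 98.3 in knockout and 99.7, 81.6 and 79.1 in wild type, and its 2 other kept probe sets were at −0.02 and −0.11. Hgs, Stam and Stam2, which form the ESCRT-0 complex that holds ubiquitinated receptors, were at 0.00, −0.04 and 0.03.

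Several probe sets of 1 gene read different stretches or splice forms of its transcripts, and 29 members had 2 or more kept ones. In 16 of the 29 every kept probe set had the same direction, and in 13 it did not. Among these 13 the kept probe sets ran from −0.25 to 0.58 in Hip1 and from −0.01 to 0.06 in Dnajc13. The largest gap between the representing probe set and another one was over 0.5 in 3 genes, Hip1r, Hip1 and Clta. The largest of these was in Hip1r, where probe set 1425552_at read 63.3, 142 and 144 in knockout and 57.6, 55.2 and 52.6 in wild type. All knockout values of this probe set were higher, but knockout array 1 lay near the wild type range, and the log2 change of 0.99 (SE 0.29) did not pass when each kept probe set was fitted (limma adjusted p = 0.0907). The representing probe set of Hip1r was at 0.12 and the remaining one at 0.20. In Eps15 the second probe set, 1419251_at, was at −0.38 (147, 118 and 157 against 217, 154 and 181, adjusted p = 0.224). In Stam the second probe set, 1416862_at, had separate groups at −0.31 (65.9, 84.6 and 79.5 against 88.0, 100.2 and 95.2, adjusted p = 0.346). In Cttn probe set 1423917_a_at had separate groups at 0.16 (964, 881 and 895 against 823, 827 and 800, adjusted p = 0.220). Of the 58 kept probe sets other than the representing ones, 5 had separate groups, 2 higher and 3 lower in knockout. By representing probe sets, 25.2% of all tested genes had separate groups. With each kept probe set fitted on its own, none of the 99 kept probe sets of the members passed by limma, and 4.91% of 19660 kept probe sets of all genes passed. An unadjusted p under 0.05 was found for 9 of the 99, or 9.09%, and for 17.7% of the kept probe sets of all genes.

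**Figure D3:**
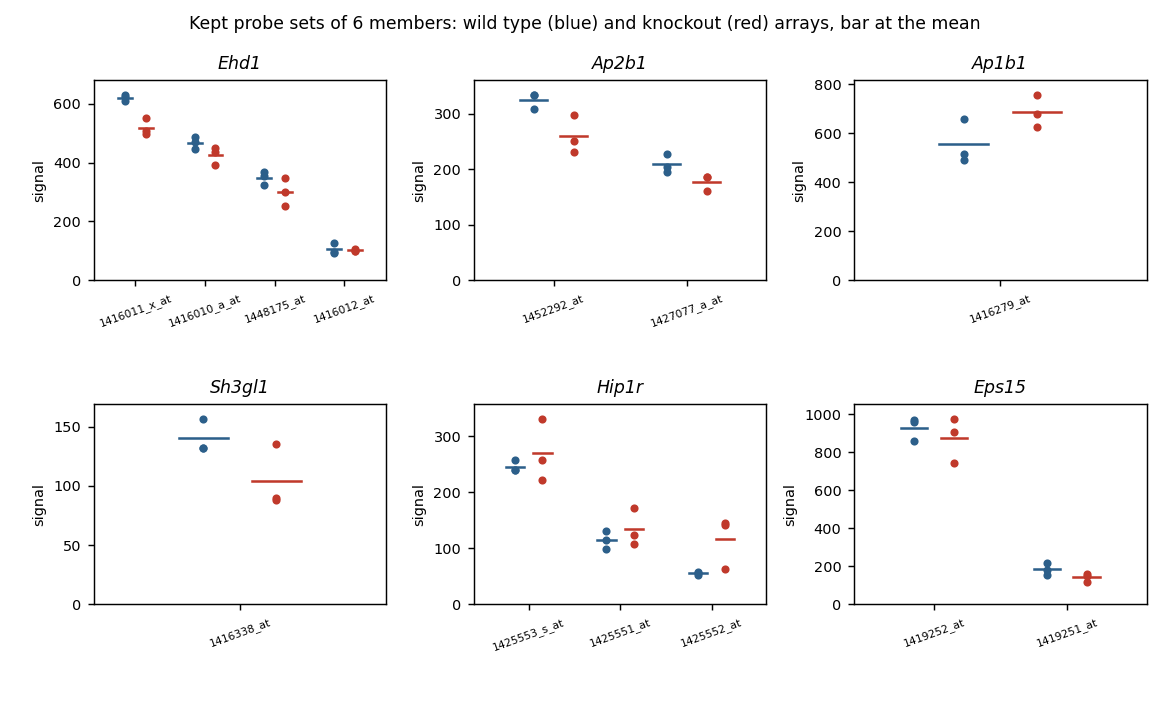
Signal on each array for every kept probe set of Ehd1, Ap2b1, Ap1b1, Sh3gl1, Hip1r and Eps15, wild type in blue and knockout in red, with a bar at the mean of 3 arrays; each axis starts at 0. The separate groups of Ehd1 appear in 1 of its 4 probe sets, and the higher knockout mean of the dimmest Hip1r probe set rests on 2 of 3 arrays.

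The other genes of the pathway, from a list of 88 entries of which 86 were on the array and 78 were tested, held 3 changed genes, or 3.85%, again against 6.48% of all tested genes. The median size of their change was 0.12. They were a partner and a subunit of AP-1 and a subunit of AP-5. Ap1ar, which encodes gadkin, a binding partner of AP-1 on Golgi and endosomal vesicles, fell 1.57-fold. Its signals were 471, 496 and 441 in knockout and 708, 776 and 733 in wild type (log2 change −0.66, SE 0.07, limma adjusted p = 0.000244). Every knockout value of Ap1ar was below every wild type value. The call of Ap1ar stood under all 16 alternatives, including each left-out array and both station settings (adjusted p up to 0.00877). No second probe set of Ap1ar was kept, so averaging probe sets could not alter its log2 change. Ap1s3, the sigma1C subunit of AP-1, rose 1.38-fold, with signals of 223, 245 and 240.0 in knockout and 171, 174 and 167 in wild type (log2 change 0.47, SE 0.09, adjusted p = 0.00975). The call of Ap1s3 ended within station 1 alone, where the log2 change was the same (adjusted p = 0.0748). Ap1s3 likewise had no second kept probe set. Ap5m1, the mu subunit of the late endosomal complex AP-5, fell 1.37-fold by its representing probe set (245, 272 and 240.1 in knockout, 330.2, 352 and 354 in wild type, log2 change −0.45, SE 0.08, adjusted p = 0.00671). Its second kept probe set was at 0.08, and the call of Ap5m1 ended when both were averaged (−0.19, adjusted p = 0.233) and within station 1 (−0.41, adjusted p = 0.0829). By their representing probe sets, the cargo receptors Lrp2 (megalin) and Cubn (cubilin) and their adaptor Dab2 were at 0.05, −0.03 and −0.08. The intervals of these representing probe sets lay within 0.25 of 0. The other kept probe sets were at 0.06 and −0.14 for Lrp2, −0.02 for Cubn and −0.06, −0.31 and −0.06 for Dab2. The Dab2 probe set at −0.31 had overlapping groups, with 438, 547 and 500 in knockout and 684, 618 and 537 in wild type.

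**Figure D4:**
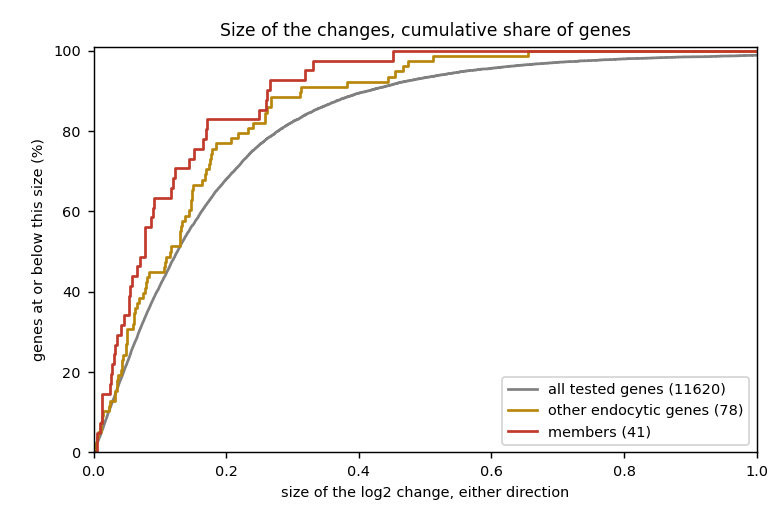
Cumulative share of genes by the size of their log2 change, regardless of direction, for the 41 members, the 78 other endocytic genes and all 11620 tested genes; the axis ends at 1. The curve of the members ends at 0.45, and that of the other endocytic genes ends at 0.66, at Ap1ar.

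Promoter windows of the members were mostly rich in CpG. RefSeq windows from 250 bases before to 50 bases after a transcription start (GRCm38.p6) were found for 35 of the 41 tested members, 43 windows in all. Of these, 81.4% counted as CpG-rich, with a GC content over 50% and a CpG count over 0.6 of that expected from base composition, against 62.8% of the windows of all tested genes in that table. The median window held 25 CpG sites for the members and 20 for all tested genes. The TATA motif TATAAA, on either strand, was found in 6.98% of the members' windows, or 3 windows, and 7.98% of those of all tested genes. The E-box CACGTG was found in 9.30%, or 4 windows, and 9.83%. CCAAT on either strand was found in 44.2% and 36.9%, and the CRE motif TGACGTCA in 4.65%, or 2 windows, and 2.81%. These shares count overlapping windows of a gene separately, as for TATAAA in Sh3gl1 and CACGTG in Epn1. The windows of the beta adaptin genes, the members with the highest change of the AP-1 group and the lowest of the AP-2 group, are shown as examples, with CpG sites in capitals. Ap1b1 (chr11:4986574-4986873, plus strand) holds 12 CpG sites and fell short of the CpG-rich mark, and Ap2b1 (chr11:83302447-83302746, plus strand) holds 16, passed the mark and contains TGACGTCA on the printed strand and CCAAT on the other strand. A match of letters is a description of the window, and none of the array values bears on binding there.
Ap1b1: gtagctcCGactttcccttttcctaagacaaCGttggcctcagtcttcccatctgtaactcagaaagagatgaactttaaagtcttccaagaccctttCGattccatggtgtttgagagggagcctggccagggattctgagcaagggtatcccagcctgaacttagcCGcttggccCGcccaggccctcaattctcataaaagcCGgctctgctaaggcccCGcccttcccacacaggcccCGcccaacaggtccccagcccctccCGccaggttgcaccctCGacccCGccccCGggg
Ap2b1: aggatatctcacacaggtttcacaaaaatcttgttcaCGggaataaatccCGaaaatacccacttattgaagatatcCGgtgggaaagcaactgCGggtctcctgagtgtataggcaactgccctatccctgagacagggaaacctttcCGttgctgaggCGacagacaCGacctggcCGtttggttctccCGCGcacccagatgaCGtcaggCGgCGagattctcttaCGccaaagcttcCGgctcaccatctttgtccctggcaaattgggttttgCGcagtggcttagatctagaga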

How the data were processed

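RNA was extracted with Trizol, copied from an oligo dT primer, amplified in 1 round, biotin-labelled and hybridised to Mouse430_2 arrays, per the labels' protocols and array records. The deposited values are linear signal intensities. The submitters' processing notes name GCOS 1.4 and MAS5 for the authors' processing. No detection calls were used here. Oligo dT priming favours probes near transcript ends. Of 45101 probe sets, 64 are controls, 34945 carry 1 symbol, 932 several and 9160 none in the platform annotation.

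The log2 of each signal was taken with no pseudocount. Probe sets were kept where the mean log2 signal reached the median of all probe sets that are not controls (signal 41.9), which left 11620 genes, each represented by its brightest kept probe set. Knockout was compared with wild type in limma 3.58.1 (R 4.3.3; lmFit, eBayes with an intensity trend, two-sided, Benjamini-Hochberg over all tested genes, threshold 0.05). A fold change is a ratio of geometric means from the fit, and means ± SD are of linear signals. The steps were tested on simulated data. Members, roles and lists were chosen with earlier results of these data known; 1 entry of the pathway list was matched through an updated symbol. Values in full are given for members past the threshold, with an unadjusted p under 0.05, with separate groups, or with the highest and lowest change of their role. Python 3.11.15, pandas 2.3.3 and matplotlib 3.10.9 made the tables and plots. Alternatives changed the transform, normalization, filter, choice of probe set, variance model, array weights, blocks, threshold and arrays.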

Additional observations from a re-analysis of the deposited data

How the results depend on the processing

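The count of members past the threshold was 1 with 50 added to every signal, quantile normalization, the stricter filter or array weights, as in the report, and that member was Ehd1 in each. It was 0 without a filter on dim probe sets, with averaged probe sets, without an intensity trend, with the station block, on station 1 alone and with each kept probe set in the fit (the last chosen after seeing the data), and 2 at an adjusted p under 0.10. Leaving out 1 array gave 0 to 3, the 3 without knockout array 1 being Ehd1, Ap2b1 and Epn2. Over 16 alternatives 36 of the 41 members passed in none; Ehd1 passed in 5, Ap1b1 in 2, and Ap2b1, Epn2 and Sh3gl1 in 1 each. The largest log2 change of these 41 over the 16 was 0.65 in size. Without the filter Amph was fitted too, at 1.47 (adjusted p = 0.388), and with each kept probe set in the fit the largest size was 0.99, in Hip1r. The median log2 change of the members was −0.029 on station 1 and −0.047 to −0.0033 without 1 array. The other endocytic genes past the threshold numbered 1 on station 1 and 5 at an adjusted p under 0.10. All tested genes past the threshold numbered 487 without an intensity trend and 458 on station 1.

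The groups share array numbers, but arrays with the same number showed no sign of deviating together (Pearson's r across genes −0.03 to 0.03). For arrays with different numbers r ran from −0.07 to 0.05. With 3 arrays a group these values do not exclude a pairing, and the main fit used none. A replicate block gave 1 member past the threshold, Ap1b1 (adjusted p = 0.0316), and 0.0546 for Ehd1, with 765 genes in all. With 3 arrays a group, 34 of the 41 members had standard errors too large for a measured change of the size seen in Ehd1, 0.26, to pass; the size needed ran from 0.23 to 0.88.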

Other observations

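Some of the other endocytic genes did not pass the threshold but had groups that did not overlap. Sh3gl2, which encodes endophilin A1, a relative of the Sh3gl1 product, had a signal of 204 ± 6.97 in knockout and 296 ± 69.6 in wild type (SD, n = 3), a log2 change of −0.51 with a limma adjusted p of 0.0593. Fnbp1l, a curvature-sensing protein that links membranes to actin, was at −0.26 (adjusted p = 0.0606), and its relative Trip10 was at −0.31 (adjusted p = 0.119). Arrb1, which encodes beta-arrestin 1, an adaptor of G protein-coupled receptors, had a log2 change of 0.44 (141 ± 7.29 against 104 ± 17.3, adjusted p = 0.112). In all, 18 of the 78 genes, or 23.1%, had separate groups, 8 higher and 10 lower, beside 25.2% of all tested genes. These genes were singled out after their values were seen.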
